A study of Mus musculus with 4 samples.

Results

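Ago2 binding was examined at 6 genes that act beside Bim in the decision between survival and death: the BCL-2 relatives Bbc3, Bmf and Mcl1, and the p53 response genes Phlda3, Trp53inp1 and Ccng1. They were chosen by name, and every row of the deposited table that carries one of these names was kept, which gave 10 features of the 2548 listed and 6 genes of 1848. A feature is a row of the table, taken as one place on a transcript where Ago2-bound RNA was counted. Bbc3, Bmf and Ccng1 had 1 feature each, Mcl1 and Phlda3 had 2, and Trp53inp1 had 3. Features of one gene share a transcript and are not independent. They are numbered here by falling mean, and their positions were not used here.

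The measurement was Ago2 PAR-CLIP, in which cells take up 4-thiouridine (500 µM for 5 hours here), ultraviolet light at 365 nm joins the labelled RNA to protein, and the RNA that is precipitated with Ago2 is sequenced. The cells were B cell progenitors from C57BL/6 E14.5 fetal liver, transformed in culture with a retrovirus that carries the v-Abl kinase, so every library came from cells with an active Abelson kinase. There were 2 wild-type libraries and 2 from cells of the genotype Bim3'UTRmut/mut, homozygous for a mutated Bim 3' UTR. Both libraries of a genotype are labelled as biological replicates, with no embryo or clone named, so p-values measure the spread between these samples only.

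BCL-2 proteins set the threshold for mitochondrial apoptosis. Survival members such as MCL-1 hold the pore formers in check, and BH3-only members such as BIM, PUMA (encoded by Bbc3) and BMF bind the survival members and release that check. The transcription factor p53 raises Bbc3 directly and also switches on genes that restrain growth signals. MicroRNAs, loaded into Argonaute proteins such as Ago2, pair through their seed, bases 2 to 8, with sites mostly in the 3' UTR of a transcript and lower its output.

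The seeds below belong to microRNAs that the literature links to these genes, and are shown because seed pairing is what places Ago2 on a transcript. The miR-17 family, here miR-17 and miR-93, is best known for Bim and has also been tied to Trp53inp1. The miR-29 family has been tied to Mcl1 and to BH3-only genes including Bbc3 and Bmf, miR-221 and miR-222 to Bbc3 and Bmf, and miR-155 to Trp53inp1. All 7 were found by name in RefSeq (GRCm38.p6), and they hold 4 different seeds, printed in capitals.
miR-17-5p: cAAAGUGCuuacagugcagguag
miR-93-5p: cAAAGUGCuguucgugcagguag
miR-29a-3p: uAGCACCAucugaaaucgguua
miR-29b-3p: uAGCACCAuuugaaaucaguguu
miR-221-3p: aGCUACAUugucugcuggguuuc
miR-222-3p: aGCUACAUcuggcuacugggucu
miR-155-5p: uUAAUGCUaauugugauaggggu
The deposited table names no microRNA for the features of the 6 genes, so none of these sequences is assigned to a feature here.

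The reads of each library were worked back exactly from the mean signal of each feature. Wa and Wb denote the wild-type libraries and Ma and Mb the mutant ones, as placed by the sign of the authors' fold changes, and their replicate numbers are not known. A normalized read is a read divided by its library's size factor. Reads in all features ranged from 14539 in Mb to 160207 in Wa, so 1 read is worth far more in Mb than in Wa. Library Mb stood apart: across all features, which are not independent, log2 normalized reads correlated at 0.74 to 0.83 among the other libraries and at 0.14 to 0.26 with Mb. The labelled cell type was checked with B lineage markers, of which 10 of 24 were listed. Their summed level was 211.9 to 241.2 normalized reads in Wa, Wb and Ma and 8.84 in Mb. In Mb 7 of the 10 had 0 reads, as did 429 of all 1848 genes, with 1 feature each. Among the 7 were Ikzf1 (88.6 normalized reads in Wa and 38.7 in Wb) and Irf4 (19.8 and 61.7). Rag1, Il7r and Kit were also at 0, but had only 1.84 to 7.34 normalized reads in the wild-type libraries. At that depth a 0 in Mb says little. The 3 listed stromal markers, Vim, Thbs1 and Pdgfra, summed to 4.08, 7.37 and 9.71 normalized reads in Wa, Wb and Ma and to 333.8 in Mb, and no hepatocyte, erythroid or myeloid marker was listed. What part this has in the values of Mb below was not tested. Values of member features and list medians whose direction rested on Mb are therefore given with and without it.

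None of the 10 features passed the test of mutant against wild type. By the authors' deposited table, log2 fold changes were above 0 at 6 features and below at 4, their median was 0.42 against -0.07 over all 2548 features, and the smallest p of the 10 was 0.153, at Bbc3. With the p-values of the authors' deposited table adjusted over all features by Benjamini-Hochberg, 0 of 10 passed at 0.05, and 0 of 10 did so unadjusted. Among all its features 0% passed the adjusted threshold, and at an unadjusted p under 0.05 7.57% of features were higher and 0.903% lower in the mutant. limma voom and limma-trend on the recovered reads also passed 0 features, with 79 and 50 at an unadjusted p under 0.05. With 2 libraries against 2, an exact two-sided permutation test of a single value cannot go below p = 0.333, so the values by library are a description. RNA levels were not measured in these libraries, so more Ago2 on a transcript and more of the transcript cannot be told apart.

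By normalized reads, the features were sorted by whether the groups overlapped. Both mutant libraries lay above both wild-type libraries at 2 features, Bbc3 and Phlda3 feature 1, and 13.1% of all features did so. Both lay below at 2 features, Bmf and Trp53inp1 feature 3, as did 20.1% of all features. The groups overlapped at the other 6. Neither count stands out from these backgrounds. Mb was the highest library at 4 of the 10, against 36.8% of all features, and had 0 reads at 2, against 25.2%. Ma had 0 reads at 4, against 23.7%.

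**Figure D1:**
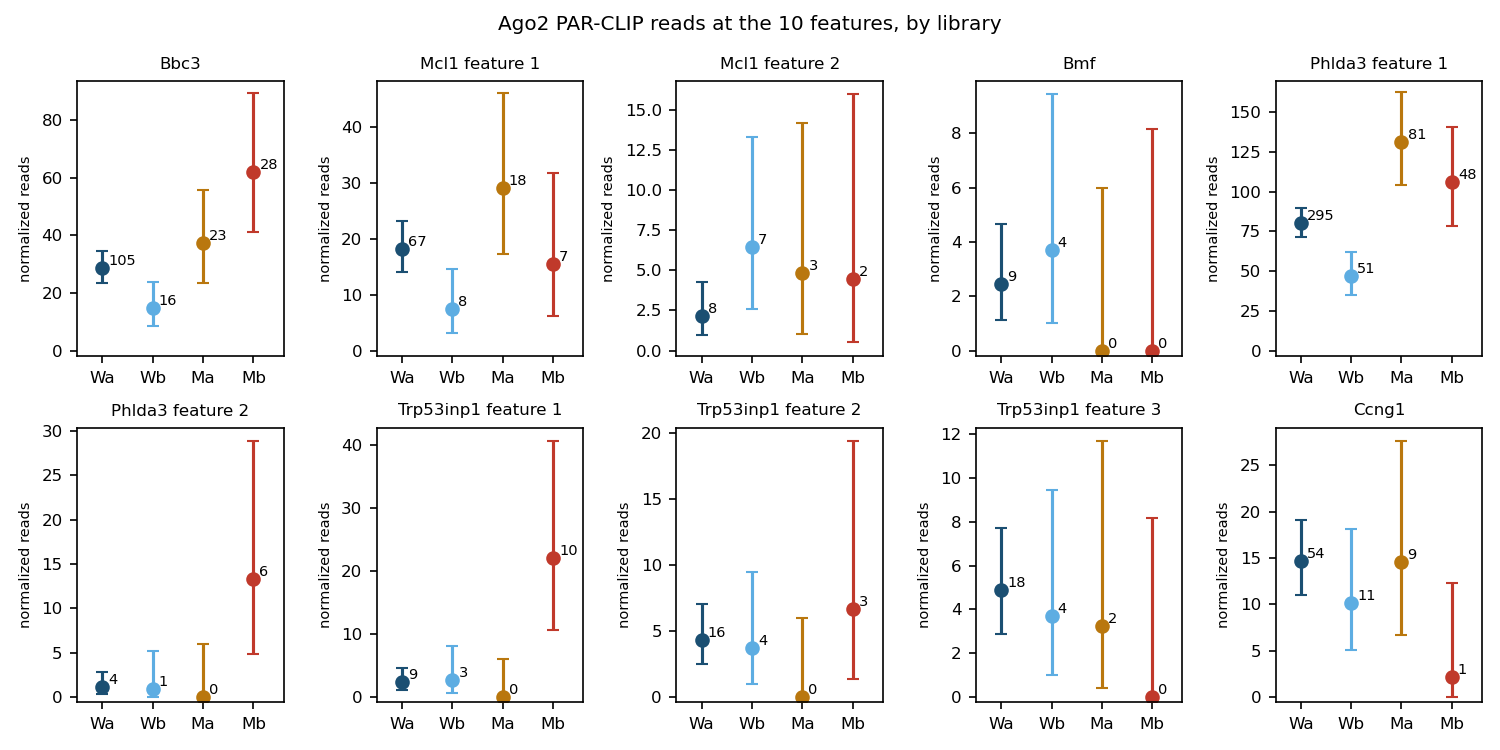
Normalized Ago2 reads (vertical axes, from 0, scaled per panel) at each of the 10 features in wild-type libraries Wa and Wb and mutant libraries Ma and Mb; bars are exact 95% Poisson intervals and the number beside each point is the whole reads behind it. Bbc3 and Phlda3 feature 1 are higher in both mutant libraries, while Phlda3 feature 2 and Trp53inp1 feature 1 are high in Mb alone, at 6 and 10 reads.

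Bbc3 encodes PUMA, the BH3-only protein through which p53 most directly triggers apoptosis. Its feature gave 105, 16, 23 and 28 reads in Wa, Wb, Ma and Mb, which is 28.5, 14.7, 37.2 and 61.9 normalized reads. Wb was the lowest library and Mb the highest, and the groups did not overlap. Intervals for single libraries are exact 95% Poisson intervals, which cover counting error only, and ran from 23.3 to 34.5 in Wa, 8.42 to 23.9 in Wb, 23.6 to 55.9 in Ma and 41.1 to 89.5 in Mb. The replicates of the wild type differed from each other: Wa over Wb was 1.94 (95% interval 1.14 to 3.51). The neighbours above them in the order did not separate beyond counting, with Ma over Wa at 1.30 (0.793 to 2.06) and Mb over Ma at 1.66 (0.924 to 3.02). Pairs further apart in the order did, as the wild-type pair had. Ma over Wb was 2.53 (1.28 to 5.12), Mb over Wa 2.17 (1.38 to 3.32) and Mb over Wb 4.20 (2.20 to 8.31). Group means were 21.6 ± 9.75 normalized reads in the wild type and 49.6 ± 17.4 in the mutant (SD, n = 2 each), a ratio of 2.29. The authors' deposited table gave a log2 fold change of 1.09 (standard error 0.76, 95% interval -0.40 to 2.58, unadjusted p = 0.153, adjusted p = 0.849). The voom log2 fold change was 0.80 without Mb and 1.52 without Ma. Since the groups did not overlap, leaving out 1 mutant library could hardly turn its direction.

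Bmf encodes a BH3-only protein that is held at the cytoskeleton through a dynein light chain. It gave 9 and 4 reads in Wa and Wb and 0 in both mutant libraries. That is 2.45 and 3.68 normalized reads in the wild-type libraries. Both mutant libraries were lower. At the wild-type mean of 3.07 normalized reads, 1.89 reads would be counted in Ma and 1.39 in Mb. By the exact 95% intervals, a count of 0 allows up to 5.97 normalized reads in Ma and 8.16 in Mb. Neither library alone could therefore show a difference. Over both mutant libraries together, 3 reads would make 2.80 normalized reads, near the wild-type mean, which itself rests on 13 reads. A limit of 3 reads is lower than that of the exact intervals. The joint count of 0 therefore does not place the mutant below the wild type. The authors' deposited table put Bmf at a log2 fold change of -1.83 (standard error 1.51, 95% interval -4.79 to 1.13, unadjusted p = 0.226, adjusted p = 0.966).

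Mcl1 encodes the short-lived survival protein that B cell progenitors depend on, and its 2 features did not follow each other. Feature 1 gave 67, 8, 18 and 7 reads in Wa, Wb, Ma and Mb, or 18.2, 7.37, 29.1 and 15.5 normalized reads. Ma was the highest and Wb the lowest, and Mb lay between the wild-type libraries. Wa exceeded Wb by a ratio of 2.47 (95% interval 1.18 to 5.96), more than counting error, while Ma over Wa was 1.60 (0.895 to 2.72). The group means, 12.8 ± 7.66 normalized reads in the wild type and 22.3 ± 9.66 in the mutant (SD, n = 2 each), differed by about the spread within each. In the authors' deposited table its log2 fold change was 0.71 (standard error 0.87, 95% interval -1.01 to 2.42, unadjusted p = 0.418).

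Feature 2 of Mcl1 gave 8, 7, 3 and 2 reads in Wa, Wb, Ma and Mb, or 2.17, 6.45, 4.86 and 4.42 normalized reads. Here Wa was the lowest library and Wb the highest, the reverse of feature 1, and both mutant libraries fell between them. The group means were nearly equal, at 4.31 ± 3.02 normalized reads in the wild type and 4.64 ± 0.307 in the mutant (SD, n = 2 each). The authors' deposited table gave a log2 fold change of 0.14 (standard error 1.18, 95% interval -2.18 to 2.46). Since both features lie on the transcripts of one gene, their share of its reads does not move with a change in the whole transcript. Feature 1 held 89.3% of the Mcl1 reads in Wa (exact Clopper-Pearson 95% interval 80.1 to 95.3), 53.3% in Wb (26.6 to 78.7), 85.7% in Ma (63.7 to 97.0) and 77.8% in Mb (39.99 to 97.2). The interval of Wb lay below that of Wa, the other wild-type library, but overlapped those of Ma and Mb. The shares in the mutant libraries lay within the wild-type range.

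Phlda3, a p53 target whose protein competes with AKT for membrane lipids and so restrains survival signalling, had 2 features of very different depth. Feature 1 gave 295, 51, 81 and 48 reads in Wa, Wb, Ma and Mb, or 80.2, 47.0, 131.1 and 106.1 normalized reads. Both mutant libraries were above both wild-type libraries. The order was Wb, Wa, Mb, Ma, and only its first step went beyond counting error: Wa over Wb was 1.71 (95% interval 1.26 to 2.34), Mb over Wa 1.32 (0.955 to 1.801) and Mb over Ma 0.809 (0.554 to 1.17). Ma exceeded Wa by 1.64 (1.26 to 2.10). Group means were 63.6 ± 23.5 normalized reads in the wild type and 118.6 ± 17.7 in the mutant (SD, n = 2 each), a ratio of 1.87. The authors' deposited table gave a log2 fold change of 0.85 with the smallest standard error of the 10, 0.67 (95% interval -0.47 to 2.17, unadjusted p = 0.209, adjusted p = 0.955). The value was much the same with voom without Mb, 1.06, and without Ma, 0.75.

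Feature 2 of Phlda3 behaved differently, with 4, 1, 0 and 6 reads in Wa, Wb, Ma and Mb, or 1.09, 0.921, 0 and 13.3 normalized reads. Only Mb was high, and Ma had none, where 0.620 reads would be counted at the wild-type mean. It made up 1.34% of the Phlda3 reads in Wa (exact Clopper-Pearson 95% interval 0.366 to 3.39), 1.92% in Wb (0.0487 to 10.3), 0% in Ma (0 of 81 reads, up to 4.45) and 11.1% in Mb (4.19 to 22.6). The authors' deposited table gave a log2 fold change of 1.79 (standard error 1.40, 95% interval -0.94 to 4.53, unadjusted p = 0.199). The direction rested on Mb: the voom log2 fold change was 1.09 with all 4 libraries and -0.64 without Mb. Without Ma, when Mb alone was set against the wild type, it was 3.52 with an adjusted p = 0.0471 by limma voom, a fit in which 13.2% of all features passed as higher and 1.06% as lower. That fit takes the lone mutant library to vary like the others.

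Trp53inp1 encodes a stress protein induced by p53 that promotes p53 activity and autophagy, and its 3 features pointed in different directions. Feature 1 gave 9, 3, 0 and 10 reads in Wa, Wb, Ma and Mb, or 2.45, 2.76, 0 and 22.1 normalized reads. The wild-type libraries were alike, Ma was the lowest and Mb the highest. Mb over Wa was 9.04 (95% interval 3.30 to 25.1), beyond counting error, whereas the 0 in Ma stands against 1.61 reads at the wild-type mean. In the authors' deposited table its log2 fold change was 1.49 (standard error 1.34, 95% interval -1.13 to 4.11, unadjusted p = 0.266). As with Phlda3 feature 2, the voom value turned without Mb, from 0.34 to -1.80, and rose to 3.04 without Ma.

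Feature 2 of Trp53inp1 gave 16, 4, 0 and 3 reads in Wa, Wb, Ma and Mb, or 4.35, 3.68, 0 and 6.63 normalized reads, so that the mutant libraries lay on either side of the wild-type ones. The deposited log2 fold change, from the authors' deposited table, was -0.26 (standard error 1.34, 95% interval -2.88 to 2.36). Feature 3 gave 18, 4, 2 and 0 reads in Wa, Wb, Ma and Mb, or 4.89, 3.68, 3.24 and 0 normalized reads. Both mutant libraries were lower there, Ma by less than its counting error and Mb with a 0 that allows up to 8.16 normalized reads. The authors' deposited table gave feature 3 a log2 fold change of -0.95 (standard error 1.36, 95% interval -3.62 to 1.72, unadjusted p = 0.485). Its voom value moved from -0.98 to -0.19 without Mb.

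The division of the Trp53inp1 reads among its features was alike in the wild-type libraries and different in Mb. Feature 1 held 20.9% of the gene's reads in Wa (exact Clopper-Pearson 95% interval 10.0 to 36.0) and 27.3% in Wb (6.02 to 61.0), against 76.9% in Mb (46.2 to 94.96). Feature 3 held 41.9% in Wa (27.01 to 57.9) and 36.4% in Wb (10.9 to 69.2), against 0 of 13 reads in Mb, which allows up to 24.7%. In Ma both of the gene's 2 reads were in feature 3. For features 1 and 3 the intervals of Mb and Wa did not overlap, so this division differed between those libraries by more than counting error. With 2 reads, Ma could not be placed: its interval for feature 1 reached from 0 to 84.2%.

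**Figure D2:**
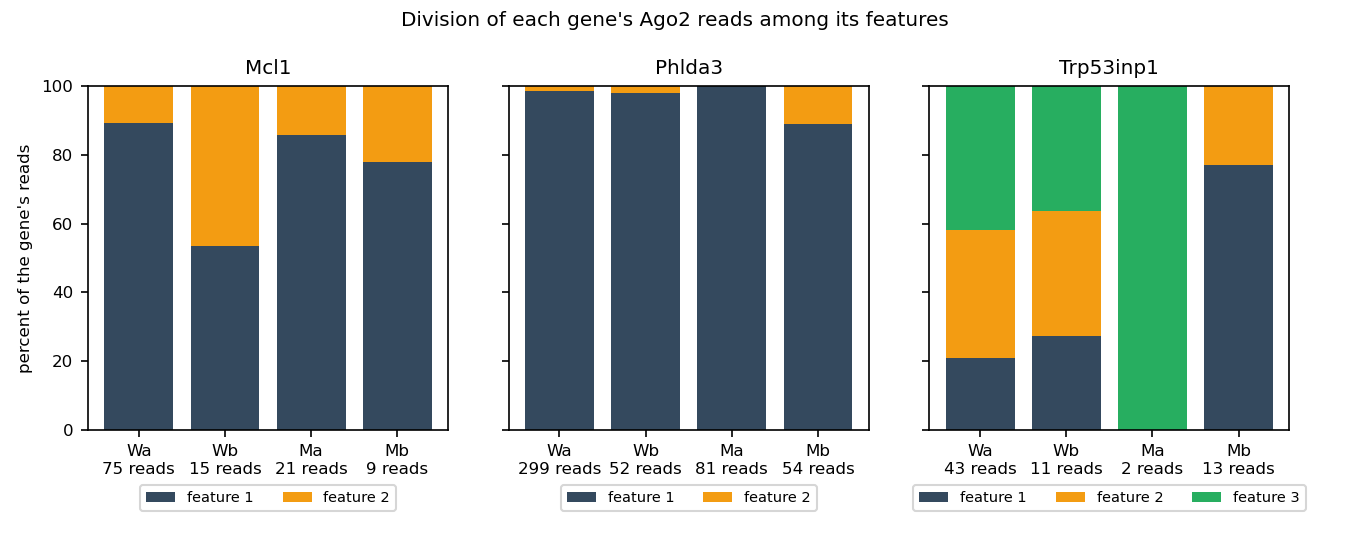
Percent of a gene's reads (vertical axis) held by each of its features in the 4 libraries, with the gene's total reads under each bar. Feature 1 of Phlda3 holds 88.9% to 100% in every library, Mcl1 is divided most evenly in Wb, and feature 1 of Trp53inp1 holds 76.9% in Mb (13 reads) against 20.9% and 27.3% in the wild-type libraries, while Ma has only 2 reads of that gene.

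Ccng1 encodes cyclin G1, a p53 target that brings the phosphatase PP2A to the p53 inhibitor MDM2. Its feature gave 54, 11, 9 and 1 reads in Wa, Wb, Ma and Mb, or 14.7, 10.1, 14.6 and 2.21 normalized reads. Ma lay with the wild-type libraries and Mb alone was low. Ma over Wa was 0.993 (95% interval 0.431 to 2.03), and Mb over Wa was 0.151 (0.00375 to 0.876). With 1 read, Mb could not be separated from Wb, at a ratio of 0.218 (0.00507 to 1.50), or from Ma, at 0.152 (0.00346 to 1.10). The authors' deposited table gave a log2 fold change of -0.46 (standard error 1.05, 95% interval -2.52 to 1.61, unadjusted p = 0.665). Without Mb the voom value turned from -0.75 to 0.26.

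**Figure D3:**
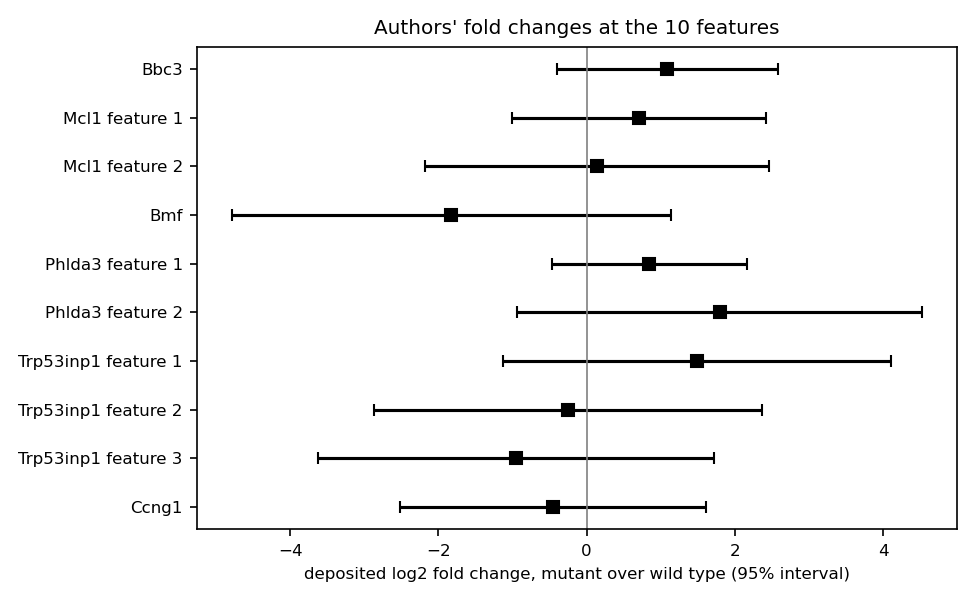
Mutant over wild type on the log2 scale from the authors' deposited table (horizontal axis), with 95% intervals derived from the deposited p, for each of the 10 features. All 10 intervals cross 0, and the narrowest belongs to Phlda3 feature 1, from -0.47 to 2.17.

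Standard errors from the authors' deposited table ran from 0.67 at Phlda3 feature 1, with 475 reads over the 4 libraries, to 1.51 at Bmf, with 13, against a median of 1.27 over all features. At Phlda3 feature 1 the 95% interval spans folds from 0.720 to 4.49, and at Bbc3 from 0.756 to 5.98, as derived from the authors' deposited table. No change lies within both intervals, as do a fall and a rise larger than the one seen.

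The fits were repeated with 1 library left out at a time. The voom log2 fold change stayed on its side of 0 in all 4 such fits at Bbc3 (0.79 to 1.70), Phlda3 feature 1 (0.56 to 1.32), Mcl1 feature 1 (0.28 to 1.50), Bmf (-2.13 to -1.45) and Trp53inp1 feature 3 (-2.07 to -0.19). At the other 5 features it crossed 0. Except for Mcl1 feature 1, the features that kept their side were those at which the groups did not overlap. There, leaving out 1 library could hardly turn the direction, so their steadiness adds little to the lack of overlap. Removing Mb turned Phlda3 feature 2, Trp53inp1 feature 1 and Ccng1, removing Ma turned Trp53inp1 feature 2 and removing Wa turned Mcl1 feature 2.

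**Figure D4:**
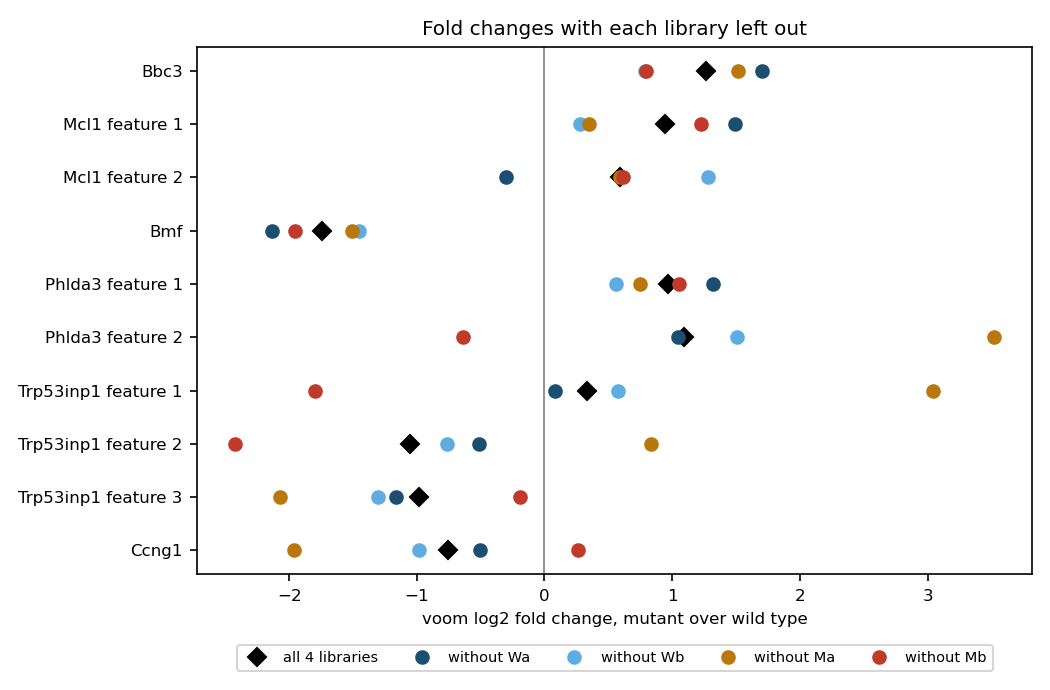
Mutant over wild type on the log2 scale by limma voom on recovered reads (horizontal axis) with all 4 libraries (diamonds) and with each library left out (circles). The circles of Bbc3, Phlda3 feature 1, Mcl1 feature 1, Bmf and Trp53inp1 feature 3 stay on one side of 0, and those of Phlda3 feature 2 reach from -0.64 without Mb to 3.52 without Ma.

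Added up, the 10 features held 159.0, 100.4, 220.1 and 232.1 normalized reads in Wa, Wb, Ma and Mb. The mutant libraries were higher, and Phlda3 feature 1 alone made up 45.7% to 59.6% of these reads in each library. With Bbc3, the other feature higher in both mutant libraries, it held most of the reads in Ma and in Mb. The sum therefore does not show a rise of the 10 features as a group. Per 10000 reads of a library's listed features the sum was 36.5, 28.1, 55.2 and 72.2 in the same order, a scaling that does not use the size factors.

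Of 25 BCL-2 family genes looked for, 5 were listed, and 3 of these were Bbc3, Bmf and Mcl1 themselves. With 1 feature each, the one of highest mean, 3 lay above 0 and 2 below, 0 passed in either direction, and their median in the authors' deposited table was 0.04 on the log2 scale, against -0.08 over all 1848 genes. The sign of that median did not hold under voom, which gave -0.17 with all libraries and 0.66 without Mb. The 2 genes besides Bbc3, Bmf and Mcl1 were Bcl2l11 and Bak1. Bak1, a pore former that MCL-1 restrains, stood at 0.04 by the authors' deposited table (log2, standard error 0.81) and had 32.1, 39.6, 55.0 and 17.7 normalized reads in Wa, Wb, Ma and Mb. The mutant libraries enclosed the wild-type ones, and the voom value of Bak1 turned from -0.17 to 0.66 without Mb. All 8 features of Bcl2l11, the mutated gene, lay below 0 in the authors' deposited table, from -2.78 to -0.07, as did 1338 of all 2548 features. None of the 8 passed (smallest adjusted p = 0.561). The one of highest mean, seed 5, had a voom value of -1.28 with all libraries and -2.49 without Mb. Seeds 1, 2, 3, 7, 8 and 9 had 0 reads in Mb. In Ma, seeds 1, 5, 7, 8 and 9 were below both wild-type libraries, while seeds 2, 3 and 6 lay between them. Seed 5 had 14.6 normalized reads in Ma against 49.7 in Wa and 168.6 in Wb. Seeds 1 and 7 were only just below, each at 3.24 in Ma on 2 reads.

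Of 48 p53 target genes looked for, 11 were listed, of which 5 lay above 0 and 6 lay under it. Each gene again stands by its feature of highest mean. Their median in the authors' deposited table was -0.22 on the log2 scale, and 0 passed in either direction. Both mutant libraries were above the wild type at 2 of the 11, Bbc3 and Phlda3, and below at 3. Over all 1848 genes, with 1 feature each, 12.2% lay above and 20% below in this way. Cdkn1a, the cell cycle inhibitor p21 and the best-known p53 target, stood at -0.27 by the authors' deposited table (log2, standard error 0.75) and had 19.6, 24.0, 17.8 and 17.7 normalized reads in Wa, Wb, Ma and Mb. Its mutant values lay just under the wild-type ones. Fbxw7, a ubiquitin ligase subunit that marks MCL-1 for destruction, stood at -2.00 by the authors' deposited table (log2, standard error 1.39, p = 0.150 unadjusted) and gave 41, 4, 0 and 1 reads in Wa, Wb, Ma and Mb. Apaf1, the apoptosome scaffold, had -0.65 and the translesion polymerase gene Polk -0.39 in the authors' deposited table.

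Among regulators of p53 and its signal, Usp10, a deubiquitinase of p53, stood at 2.60 by the authors' deposited table (log2, standard error 1.50, p = 0.0818 unadjusted) on 6 reads, 5 of them in Mb. Without Mb a single read of Usp10 remained, in Wa. The checkpoint kinase gene Chek2 stood at 0.14 by the authors' deposited table on 6 reads, 5 of them in Wa. Neither passed. Of 28 genes of BCL-2 protein turnover and caspase control, 4 were listed, and 0 passed. Each stands by its feature of highest mean, of 2 for Fbxw7 and Xiap and of 4 for Foxo1. All 4 genes lay below 0 in the authors' deposited table, with a median of -0.68. Over all 1848 genes, with 1 feature each, 982 lay below 0 and the median was -0.08. Fbxw7 and Apaf1, already counted among the p53 targets, were among the 4. The others were the caspase inhibitor gene Xiap (-0.71) and Foxo1 (-0.56 in the authors' deposited table), a transcription factor of the B lineage. That feature of Foxo1 was low in Mb alone, with 18.5, 26.7, 25.9 and 2.21 normalized reads in Wa, Wb, Ma and Mb. Its voom value turned from -1.24 to 0.29 without Mb. The median of these 4 genes by voom was -0.83 with all libraries and -0.43 without Mb.

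Other features were ranked by how closely their values over the 4 libraries followed those of each member feature. Likeness was the distance between log2 values, each feature centred on its own mean, among 1418 features with at least 20 reads, and says nothing of shared control. The 3 nearest to Bbc3 were Mmp11, Ctns and Pfn2, at distances of 0.237 to 0.365. Nearest to Phlda3 feature 1 was Kdm6b, a histone demethylase gene, at 0.0928, with 7.61, 4.61, 12.9 and 11.1 normalized reads in Wa, Wb, Ma and Mb, followed by Tmcc1 and Jade1. Mcl1 feature 1 lay nearest to Tmem170b, Btbd10 and Tardbp, and feature 2 to Tmbim6, Caprin1 and Mier3. Bmf lay nearest to Retreg3, Spcs3 and Bsdc1, at 0.523 to 0.588. The minimum of 20 reads left out other features as shallow as Bmf, which has 13. Phlda3 feature 2 lay nearest to Nptn, Retreg2 and Rab23, and Trp53inp1 feature 1 to Arhgef12, Dek and Rab23, all of them highest in Mb. Trp53inp1 feature 2 lay nearest to Ets2, Sik1 and Kif14, low in Ma. Trp53inp1 feature 3 lay nearest to seed 7 of Bcl2l11 at 0.0646, with Mef2d and Slc30a7 next, and Ccng1 to Baz2a, Zfp11 and Sin3b, all low in Mb.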

How the data were processed

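Per the submitters' processing notes, CASAVA 1.8.2, BWA 0.7.12-r1039 and DESeq2 were used with the builds mm9 and NCBIM37; how features were defined and counted, and whether PCR copies were removed, is not given in the sources used here. Per the file headers, the deposited table holds a mean signal (reads over size factors, averaged over 4 libraries), a log2 fold change and an unadjusted p-value per feature. The authors' fold changes are not raw ratios: Phlda3 feature 2 had a deposited fold of 3.47 and a raw ratio of 6.61. The name of the table gives their direction, with the mutant over the wild type.

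Adjusted p-values are Benjamini-Hochberg over 2548 features at a threshold of 0.05. Standard errors were derived from the deposited p, assuming a Wald test. Each mean is a weighted sum of whole reads. Weights were found from the lowest means, and 2548 of 2548 features had exactly 1 solution (largest misfit 5.12e-13), against 0 of 2165 means shifted slightly as a control. Libraries were placed on the sides whose means differ with the same sign as the authors' comparison at 98.8% of features; other splits reached 67.6% or fewer. The main values are the authors'. Alternatives used limma 3.58.1 in R 4.3.3 (voom and trend). Of these, only voom with all 4 libraries was tested on simulated data. The simulated libraries of a side shared their means, so none stood apart as Mb did. Ratios of group means are raw, and a pseudocount of 0.5 was used for likeness and limma-trend. Feature lengths were not used here, so levels of different genes are not ranked.

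Members and lists were chosen with earlier results of these data known. Named genes are the members, the Bcl2l11 features, up to 8 listed genes per list by smallest p, and the 3 nearest features to each member. B lineage and stromal genes in the library check, and the libraries it names, were named after their values were seen. The summary of the p53 regulator list and 1 of its genes are not reported here.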

Additional observations from a re-analysis of the deposited data

How the results depend on the processing

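The count of features passing, 0, was the same at an adjusted p of 0.1, among features at or above the median mean, with limma voom, limma-trend and voom scaled by library totals. Leaving out 1 library gave 0 to 364 features, the 364 without Ma. For single features, 64 of 70 alternative values kept their direction and side of the threshold. Over the fits that left out 1 library, the log2 fold change ran from -0.30 to 1.28 at Mcl1 feature 2, from -0.64 to 3.52 at Phlda3 feature 2 (past the threshold without Ma), from -1.80 to 3.04 at Trp53inp1 feature 1, from -2.42 to 0.83 at Trp53inp1 feature 2 and from -1.96 to 0.26 at Ccng1. The median of the BCL-2 family list ran from -0.34 to 0.66 in those fits, and that of the p53 target list from -0.20 to -0.048. In alternatives chosen after seeing the data, the BCL-2 median was 0.61 in Ma alone and -0.17 in Mb alone, and the p53 target median -0.23 and -0.29. A mean over all features of a gene gave -0.35 for the BCL-2 list and -0.27 for p53 targets. Causes were not tested. No paired analysis was possible because the recovered libraries carry no replicate numbers. Depth limits Bmf, Mcl1 feature 2, Phlda3 feature 2 and the 3 Trp53inp1 features most, at 11 to 24 reads each.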
